A study of Homo sapiens with 6 samples.

Results

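Actin is encoded in humans by 6 genes, and this account describes the RNA of all 6 together with SRF, the gene of the transcription factor that drives them. The genes are ACTB and ACTG1 for the cytoplasmic actins, ACTA1 and ACTC1 for the skeletal and cardiac muscle α-actins, and ACTA2 and ACTG2 for the smooth muscle actins. The 7 members were found by their symbols, each matching a single row of the 58735 rows of counts. They were selected on their log2 fold changes and levels in the comparison of TAK1 shRNA with scrambled shRNA, so those values are given for the members as a description without a test. The RNA came from 3 samples of RD cells, an established embryonal rhabdomyosarcoma (ERMS) line, transduced with lentivirus carrying TAK1 shRNA, and 3 samples of the same line transduced with lentivirus carrying a scrambled shRNA as control. The groups therefore shared the line, the viral vector and the growth medium, and differed in the hairpin. A single TAK1 hairpin was sequenced in a single line, so an effect of TAK1 loss and an effect of that hairpin cannot be told apart. The labels do not say whether the samples of a group came from separate transductions, so p-values measure the spread between these samples only.

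Actin monomers polymerize into filaments that carry cell shape, migration and, in muscle, the thin filaments of the sarcomere. Monomeric actin also binds the myocardin-related transcription factors MRTFA and MRTFB and keeps them from SRF, so that a fall in free monomer releases them to act with SRF on the actin genes themselves and on genes of the cytoskeleton. SRF works with ternary complex factors of the ELK family as well, on growth factor-induced genes such as EGR1 and FOS. In developing and regenerating skeletal muscle, cardiac α-actin appears early and skeletal α-actin predominates in mature fibers.

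The sequence through which SRF binds these genes, the CArG box, was sought in the RefSeq promoter table (build GRCh38.p14), which covers 250 bases before to 50 bases after each annotated start. The box has 10 bases, its motif reads alike on both strands, and it was the only motif searched. The table held 6 of the 7 members, all but ACTB. The windows below carry each box found in a member, printed 5′ to 3′ along the gene's own strand with the box in capitals, because they show which actin genes hold a textbook SRF site close to the start.
ACTG1, chr17:81512874-81512903, minus strand: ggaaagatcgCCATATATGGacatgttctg
ACTC1, chr15:34795639-34795668, minus strand: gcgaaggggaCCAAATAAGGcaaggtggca
ACTA1, chr1:229434172-229434201, minus strand: tgcccaacacCCAAATATGGctcgagaagg
ACTG2, chr2:73892888-73892917, plus strand: gaaaaaaccaCCTTATATGGtaatattgct
ACTG2, chr2:73892925-73892954, plus strand: cgtcagctggCCTTTTTAGGgactttgttt
SRF, chr6:43171229-43171258, plus strand: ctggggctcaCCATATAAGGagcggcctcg
SRF, chr6:43171249-43171278, plus strand: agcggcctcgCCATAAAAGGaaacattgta

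The boxes of ACTG1, ACTA1 and ACTC1 began 94, 97 and 109 bases before the start, and those of ACTG2 110 and 73 bases before it. SRF carried its boxes closest to the start, at 30 and 10 bases before it. The table lists 3 starts for ACTC1 and 2 for SRF, and in each gene only 1 of these windows held a box. ACTA2 had 0 exact boxes within its 2 annotated windows, which says only that these letters were not in them. Among all 35116 promoters in the table, 454 held a box (1.29%), and among the 27305 genes 438 did so at some start (1.6%). A box was thus present in 5 of the 6 members with an entry. The match is a description of sequence. Binding was not measured here.

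The libraries held between 28839898 and 34469323 counts each. MAP3K7, which encodes TAK1, fell from 77.3 ± 0.743 to 31.3 ± 2.00 CPM (SD, n = 3 per group), where CPM is the count scaled to normalized library size. The log2 fold change was -1.30 (SE 0.062, Benjamini-Hochberg adjusted p = 4.45e-14 by the quasi-likelihood test of edgeR). Of the 15935 genes with enough counts to test, 3684 passed an adjusted p under 0.05 with a log2 fold change of at least 0.25 in either direction, which is 23.1%. Called genes made up 11.8% of those tested in the upward and 11.3% in the downward direction. Of the skeletal muscle markers, DES stood at 340.5 ± 5.05 and MYOD1 at 263 ± 8.03 CPM in control samples, while MYF5 was at 0 counts in all 6 samples. Markers of blood cells summed to at most 0.106 CPM and epithelial markers to at most 0.603 CPM in any sample. Of the 5 endothelial markers only CLDN5 was abundant enough to test and it rose, with CDH5 and KDR at 0 counts in all samples and a summed level of 5.78 to 6.30 CPM in control and 16.4 to 21.1 CPM in knockdown samples.

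The cytoplasmic actins were lower in all 3 knockdown samples. ACTB (chromosome 7, 5526409 to 5563902 in GRCh38, minus strand) stood at 5851, 5606 and 5619 CPM with scrambled shRNA and at 4395, 4114 and 4234 CPM after TAK1 knockdown. The knockdown samples lay below every control sample by at least 1211 CPM, with group means of 5692 ± 138 and 4248 ± 141 CPM (SD, n = 3). On the log2 scale the difference was -0.42 (SE 0.037), a change of -25.4%. ACTG1 (chromosome 17, 81509413 to 81523847, minus strand), whose protein differs from β-actin at only a few residues near the amino terminus, read 2845, 2736 and 2703 CPM in control samples and 2079, 1972 and 1989 CPM in knockdown samples. The groups were again apart, and the mean moved from 2762 ± 74.5 to 2013 ± 57.8 CPM, or by -0.46 on the log2 scale (SE 0.039). In bulk RNA, fewer cells with high actin and less actin RNA per cell cannot be told apart. Of all tested genes, 8.58% had a log2 fold change at or below that of ACTB.

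The counts of ACTB and ACTG1 kept nearly the same proportion to each other. Within each sample, a ratio that no scaling between samples can alter, there were 2.06, 2.05 and 2.08 ACTB counts for each ACTG1 count in control samples and 2.11, 2.09 and 2.13 in knockdown samples. The means of 2.06 ± 0.0157 and 2.11 ± 0.0215 (SD, n = 3) lay close together, although all 3 knockdown samples were above all 3 control samples.

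**Figure D1:**
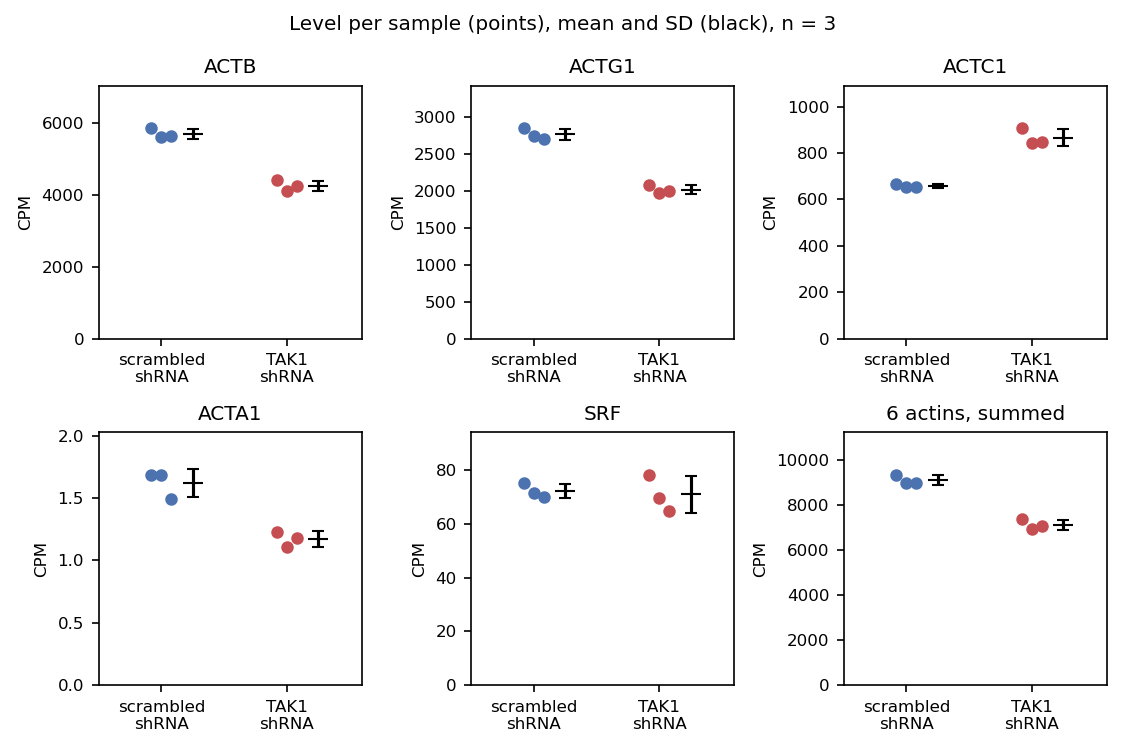
CPM of ACTB, ACTG1, ACTC1, ACTA1, SRF and the sum of the 6 actins in each sample (points, y axes from 0), with the mean and SD of each group in black (n = 3). ACTB, ACTG1, ACTA1 and the sum were lower and ACTC1 was higher in every knockdown sample than in any control sample, while the SRF values overlapped.

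The muscle actins differed from each other in level and direction. ACTC1 (chromosome 15, 34790107 to 34795589, minus strand), the cardiac α-actin that immature skeletal muscle also makes, was the only abundant muscle actin in RD cells. It stood at 668, 655 and 651 CPM in control samples and at 907, 844 and 846 CPM in knockdown samples. All knockdown values exceeded all control values, and the mean went from 658 ± 8.65 to 866 ± 36.1 CPM (SD, n = 3). The difference was 0.40 on the log2 scale (SE 0.042), or 31.6% more. Knockdown replicate 1 was the highest, and without it the log2 fold change was 0.36. Of all tested genes, 13.0% had a value at or above that of ACTC1.

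ACTA1 (chromosome 1, 229430365 to 229434104, minus strand), the actin of mature skeletal muscle, was barely expressed. Its raw counts were 48, 53 and 46 in control samples and 36, 39 and 39 in knockdown samples, or 1.69, 1.68 and 1.49 against 1.23, 1.10 and 1.18 CPM. The groups did not overlap, but at this depth counting error alone gave a coefficient of variation of 14.3%, and the log2 fold change of -0.47 carried a standard error of 0.27. Cardiac actin counts outnumbered skeletal actin counts by 407 ± 25.8 to 1 in control and by 739 ± 24.4 to 1 in knockdown samples (SD, n = 3). These ratios rest on 36 to 53 ACTA1 counts per sample, so their uncertainty from counting is larger than these SDs.

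The smooth muscle actins were at or near the limit of detection in both groups. ACTA2 (chromosome 10, 88935074 to 88991339) had 2, 3 and 0 counts in control and 0, 1 and 4 counts in knockdown samples, and ACTG2 (chromosome 2, 73892314 to 73919865) had 0, 0 and 1 against 1, 1 and 0. A count of 0 in these libraries allows up to 3 counts, between 0.087 and 0.104 CPM, so no fold is given and no difference was detectable. MYOCD, the SRF coactivator of smooth and cardiac muscle, was at 0 counts in all 6 samples. CNN1, a smooth muscle calponin, totalled 20 counts over the 6 samples, and MYH11, the smooth muscle myosin, averaged 0.828 CPM in control samples. The 7 smooth muscle markers summed to 53.4 to 55.9 CPM in control and 51.8 to 58.2 CPM in knockdown samples, most of it SMTN. Of the 5 tested, 2 were called up (40%, beside 11.8% of all tested genes) and 0 down (beside 11.3%). The 2 were TAGLN, at 2.00 ± 0.583 and 3.39 ± 0.126 CPM in control and knockdown samples, and SMTNL2, at 0.824 ± 0.261 and 1.76 ± 0.368 CPM. With so few genes, nothing is read from these shares. Of the cardiac markers, MYL7 and NPPB were at 0 counts throughout and NKX2-5 was present at 33.6 ± 0.984 CPM in control and 31.4 ± 3.11 CPM in knockdown samples. The 7 cardiac markers summed to between 33.5 and 35.5 CPM in control and between 28.7 and 35.0 CPM in knockdown samples.

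Summed over the 6 genes, actin went from 9113 ± 220 to 7128 ± 231 CPM (SD, n = 3), a log2 ratio of -0.35. The 6 genes took 0.895 ± 0.0167% of all counts in control and 0.724 ± 0.0212% in knockdown samples. Divided by the length of all annotated exons of each gene, from GENCODE 44, the order of levels in control samples was ACTB, ACTG1, ACTC1, SRF and ACTA1, at 1292 ± 31.4, 682 ± 18.4, 230 ± 3.03, 17.1 ± 0.627 and 0.681 ± 0.0469 CPM per kilobase. ACTA2 and ACTG2 came last, at 0.00981 ± 0.00878 and 0.00284 ± 0.00491 CPM per kilobase, and did not differ from each other beyond their spread. The order of the 5 detected members was the same in knockdown samples, at 964 ± 32.0, 497 ± 14.3, 303 ± 12.6, 16.8 ± 1.62 and 0.492 ± 0.0269 CPM per kilobase.

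On this length-adjusted scale cardiac actin made up 10.4 ± 0.112% of all actin in control and 17.2 ± 0.222% in knockdown samples (SD, n = 3), while the share of ACTB went from 58.6 ± 0.160% to 54.6 ± 0.293% and that of ACTG1 from 30.9 ± 0.164% to 28.2 ± 0.164%. In raw counts, there were 7.68, 7.85 and 7.83 ACTC1 counts for every 100 counts of ACTB plus ACTG1 in control samples and 14.0, 13.9 and 13.6 in knockdown samples. The groups were apart by many times their spread, with a ratio of means of 1.78, and this measure too needs no scaling between samples. The lengths in use by these cells are not known, and with the length of the canonical transcript the ACTC1 share read 9.41% and 15.6%.

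**Figure D2:**
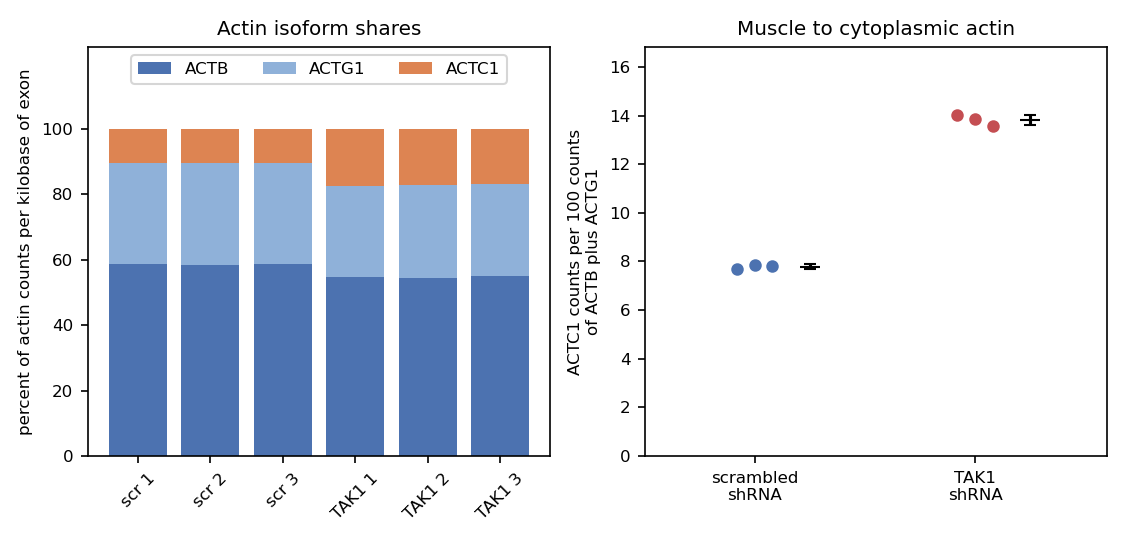
Left, share of ACTB, ACTG1 and ACTC1 in the actin counts per kilobase of exon in each sample (scr, scrambled shRNA), with the other 3 actins too low to be seen. Right, ACTC1 counts per 100 counts of ACTB plus ACTG1 in each sample (points), with mean and SD in black (n = 3). The groups averaged 7.78 and 13.8.

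Of the 5 members with enough counts to test, the call rule would count 1 as up and 2 as down, beside 23.1% of all tested genes in either direction. Because this contrast chose the members, nothing is read from that count. The values of 4 of the 5 did not overlap between the groups, as was true of 43.9% of all tested genes.

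SRF (chromosome 6, 43171269 to 43181506, plus strand) itself read 75.3, 71.8 and 70.1 CPM in control samples and 78.4, 69.8 and 64.9 CPM in knockdown samples. The knockdown values lay on both sides of the control values, with a log2 fold change of -0.03 (SE 0.062) whose sign depended on which sample was left out, between -0.10 and 0.024. Its cofactors are not among the members, although the rule that chose the members also names the MRTF factors. Of 6, 5 were tested, 2 fell (40%, beside 11.3% of all tested genes) and 0 rose (beside 11.8%) by edgeR. With so few genes and the MRTF factors named in that rule, nothing is read from the share that fell or the 0 that rose. The values of MRTFA and MRTFB are a description. DESeq2 and limma called 3 and 2 down and 0 up, and 0 were higher at an unadjusted p under 0.05. Their median log2 fold change was -0.25, against 0.018 for all tested genes. ELK3, a ternary complex factor, fell from 102 ± 2.20 to 74.9 ± 2.17 CPM (SD, n = 3, log2 fold change -0.45, SE 0.051, adjusted p = 1.74e-07, edgeR). MRTFB, an actin-sensing coactivator, went from 47.1 ± 4.02 to 39.1 ± 2.06 CPM (log2 fold change -0.27, SE 0.069). By the call rule MRTFB would no longer count as down without control replicate 3 (-0.20) or knockdown replicate 1 (-0.24). MRTFA had values of 45.8 ± 0.395 and 47.6 ± 3.09 CPM (log2 fold change 0.05) and would not count as changed. ELK1 did not pass at -0.04. ELK4 had a log2 fold change of -0.25 just short of the fold threshold, with an adjusted p of 0.00109 from edgeR, and it counted as down without control replicate 2 or 3 or knockdown replicate 3.

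Actin genes have many near-identical copies in the genome, so reads could be split among them, and the handling of such reads is not given in the sources used here. Of 37 rows for processed pseudogenes, POTE genes with an actin segment and ACTBL2, 20 had 0 counts in all samples. Together the copies took 252 to 283 counts in control and 292 to 400 counts in knockdown samples, at most 0.163% of the actin counts of a sample. With these counts added to ACTB and ACTG1, their log2 fold changes remained -0.42 and -0.46. Reads discarded for matching several places would appear in no row. Levels and shares compared between actin genes could therefore be off by an unknown amount. The exons of ACTB, ACTG2 and SRF overlap no other annotated gene. Those of ACTG1, ACTA1 and ACTC1 share 67, 396 and 449 bases with RNAs annotated on the opposite strand, that of ACTC1 being GJD2-DT, and those of ACTA2 overlap FAS and ACTA2-AS1 on the opposite strand and share 401 bases with a long non-coding RNA on the same strand. Whether the counting used strand is not given in the sources used here.

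ACTB and GAPDH are common references for comparing RNA between samples, so ACTB was set beside 13 genes often used that way. Among them edgeR called 3 down and 0 up, as did DESeq2 and limma in number. At an unadjusted p under 0.05, 2 were higher, a count for which no share over all genes was computed. The genes down made up 23.1% of the list, beside 11.3% of all tested genes, and those up 0%, beside 11.8%. The median log2 fold change was -0.18. GAPDH, a glycolytic enzyme, fell from 2702 ± 50.05 to 2005 ± 54.1 CPM (SD, n = 3, log2 fold change -0.43, SE 0.038, adjusted p = 2.4e-09, edgeR). YWHAZ and B2M fell as well, at -0.29 each, and both fell short of the fold threshold when counts were scaled by library size alone. TBP, the TATA-binding protein, had a log2 fold change of -0.06 and did not pass (adjusted p = 0.555, edgeR). The ribosomal protein genes RPLP0 and RPL13A had values of 0.12 and 0.09 and were not called. The ratio of ACTB to GAPDH counts was 2.12, 2.10 and 2.09 in control samples and 2.13, 2.10 and 2.13 in knockdown samples, so the groups overlapped. Against 10 of the 13 reference genes the ACTB ratio was lower in every knockdown sample than in any control sample. The lowest of these differences on the log2 scale was -0.54 against RPLP0, and -0.37 was found against TBP. The ratio overlapped between groups for GAPDH, B2M and YWHAZ, the 3 genes called down. ACTB was chosen on this contrast and its own fall enters every ratio, so nothing is read from the count of 10.

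**Figure D3:**
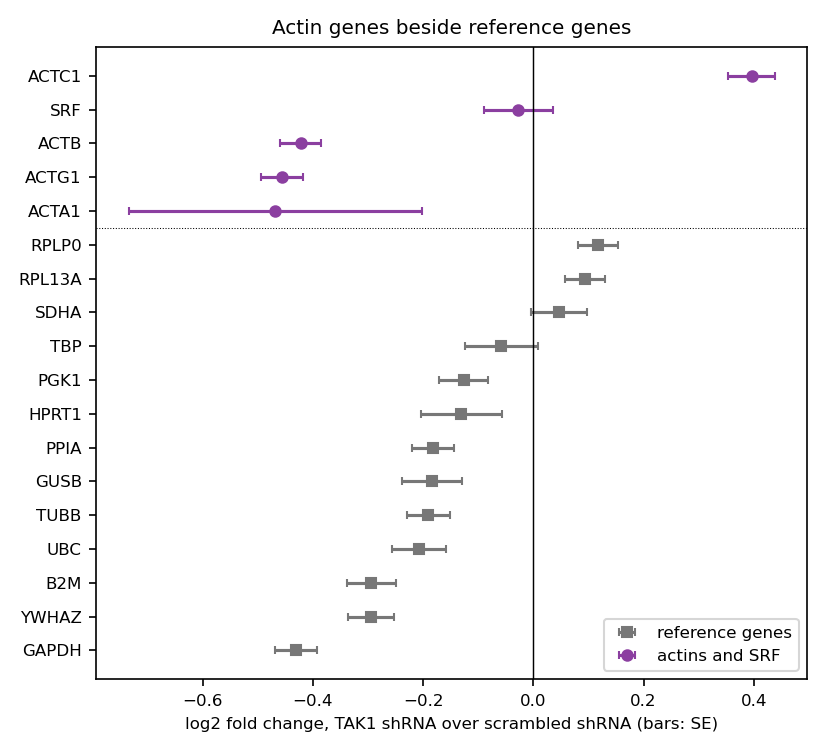
Log2 fold change (x axis) with its standard error (bars) for the 5 members with enough counts (purple) and 13 reference genes (grey squares), TAK1 shRNA over scrambled shRNA. ACTB and ACTG1 lie beside GAPDH at about -0.4, whereas ACTC1 lies at 0.40, above every reference gene.

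The gene with the pattern most like that of ACTB over the 6 samples was also GAPDH. Likeness was measured as the root mean square difference of log2 CPM after subtracting each gene's own mean, among 9711 genes averaging 10 CPM or more, and came to 0.0097 for GAPDH. DAG1, which encodes dystroglycan, and EHD4 followed at 0.017 and 0.018. GAPDH headed the list for ACTG1 too (0.017), followed by VSTM4 and UHRF1, each at about 0.018 to 0.019. For ACTC1 the closest were RAPGEF1 (0.018), the kinase gene MAP2K7 (0.020) and TMEM120A (0.022). For ACTA1 they were ITGB5 (0.023), the formin gene DIAPH3 (0.027) and TMEM98 (0.032), and for SRF METTL22 (0.015), RNF126 (0.017) and MPST (0.025). All genes share these 6 libraries and their grouping, so the likeness is a description only.

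Of 22 genes known as targets of MRTF and SRF that were tested, from a list of 23, 8 fell (36.4%, beside 11.3% of all tested genes), 3 rose (13.6%, beside 11.8%) and 11 were not called, with 18 of the 22 values below 0 and a median log2 fold change of -0.21. Like the other lists here, this list was chosen with earlier results of these data known, so its shares are a description. TPM4, a non-muscle tropomyosin that lines actin filaments, fell from 663 ± 12.2 to 384 ± 20.7 CPM (SD, n = 3, log2 fold change -0.79, SE 0.045, adjusted p = 1.3e-12, edgeR). CTGF, a matricellular protein, also fell by 0.79 on the log2 scale and its relative CYR61 had a log2 fold change of -0.55. Both are also targets of YAP, whose pathway the study examined in these samples, so nothing about SRF is read from them. The part of either pathway in any value of this list was not tested. FLNA, VCL, FHL2, TGFB1I1 and THBS1, named after their values were seen, completed the genes that fell, at -0.35, -0.30, -0.38, -0.31 and -0.29. THBS1 fell short of the threshold without control replicate 1 or knockdown replicate 2, at -0.23 in each fit. In the other direction, TAGLN, the actin-binding transgelin of smooth muscle, rose from 2.00 ± 0.583 to 3.39 ± 0.126 CPM (log2 fold change 0.75, SE 0.21, adjusted p = 0.00675, edgeR), and LIMA1, an actin crosslinker, rose from 46.3 ± 2.53 to 68.4 ± 3.34 CPM (0.56). MYL9, the regulatory light chain of non-muscle and smooth muscle myosin, rose by 0.25, at the threshold, and lost its call in 4 of the 6 fits with a sample left out (0.22 to 0.25). A CArG box was present in the promoter of 8 of the 20 list members that the table held. Of those 8, the 4 that fell were TPM4, FHL2, FLNA and TGFB1I1, and the 4 not called were CNN2, FHL1, ACTN1 and FILIP1L, at -0.22, 0.16, -0.05 and -0.27.

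Among targets that SRF shares with ternary complex factors, no gene was called up. Of 9 tested, edgeR, DESeq2 and limma each called 4 down and 0 up, and 0 were higher at an unadjusted p under 0.05. By edgeR this made 44.4% down, beside 11.3% of all tested genes, and 0% up, beside 11.8%. With so few genes, nothing is read from the 0 up. Their median of -0.62 was the value of EGR2, which had 78 counts in all and an SE of 0.48. EGR1, a zinc finger factor induced within minutes by ERK signaling, had the largest change of the list at -1.32, and the study examined it as well. IER2 fell from 69.2 ± 2.89 to 39.3 ± 3.35 CPM (SD, n = 3, log2 fold change -0.82, SE 0.065, adjusted p = 4.23e-10, edgeR). The AP-1 subunit genes FOS and JUNB fell by 0.68 and 0.32 on the log2 scale. EGR2 and EGR3 were near the limit of detection, at 0.511 ± 0.146 and 0.655 ± 0.139 CPM in control samples.

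Of 24 genes for proteins that form, bind or maintain the sarcomeric thin filament, 20 were tested, 4 rose, 1 fell and 15 were not called. This made 25% called, beside 23.1% of all tested genes, with 20% up (beside 11.8%) and 5% down (beside 11.3%). The median was 0.094. NEB, the giant ruler of thin filament length, rose from 178 ± 4.59 to 301 ± 42.9 CPM (SD, n = 3, log2 fold change 0.76, SE 0.065, adjusted p = 1.74e-09, edgeR). ACTN3, the α-actinin of fast fibers, rose by 0.57, and TNNI1, the slow skeletal troponin I, by 0.35. LMOD3, a thin filament nucleator named after its value was seen, rose by 0.31 but lost its call without control replicate 1 (0.26) or 2 (0.31) or knockdown replicate 3 (0.23). TPM3, a tropomyosin with both slow muscle and non-muscle isoforms, fell by 0.37 on the log2 scale. TNNT3 counted as down without knockdown replicate 2, at -0.58. TNNT2, at 0.23, counted as up without control replicate 3 (0.27), knockdown replicate 1 (0.31) or knockdown replicate 3 (0.26). It did so too when counts were scaled by library size alone (0.28) or by the upper quartile (0.25). TPM1 and TPM2 stand in this list and among the MRTF-SRF targets, with values of -0.17 and -0.14, and were not called. The muscle lineage factors MYOD1 and MYOG rose by 0.37 and 0.27, and their part in the ACTC1 value was not tested.

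Among the 18 proteins that bind actin monomers or drive filament turnover, 9 fell, 1 rose and 8 were not called, so that 55.6% were called, beside 23.1% of all tested genes. Their median was -0.24. PFN2, a profilin that delivers monomers to growing ends, fell from 226 ± 8.76 to 93.1 ± 2.61 CPM (SD, n = 3, log2 fold change -1.28, SE 0.049, adjusted p = 1.08e-15, edgeR), close to the size of the MAP3K7 change. The ubiquitous profilin PFN1 fell from 894 ± 21.7 to 674 ± 38.8 CPM (-0.41). CAP2, a cyclase-associated protein that recycles monomers and is abundant in striated muscle, fell by 0.67 on the log2 scale, and WDR1, which assists cofilin in disassembly, by 0.36. CFL1, cofilin itself, had a log2 fold change of -0.23, short of the fold threshold, and counted as down without control replicate 3 or knockdown replicate 1. The monomer-sequestering thymosins TMSB4X and TMSB10 fell by 0.33 and 0.26, the latter losing its call without knockdown replicate 1 (-0.23). SSH3, a slingshot phosphatase named after its value was seen, rose by 0.30. LIMK2, a kinase that inactivates cofilin, had 0.21 and counted as up without knockdown replicate 2 (0.25).

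**Figure D4:**
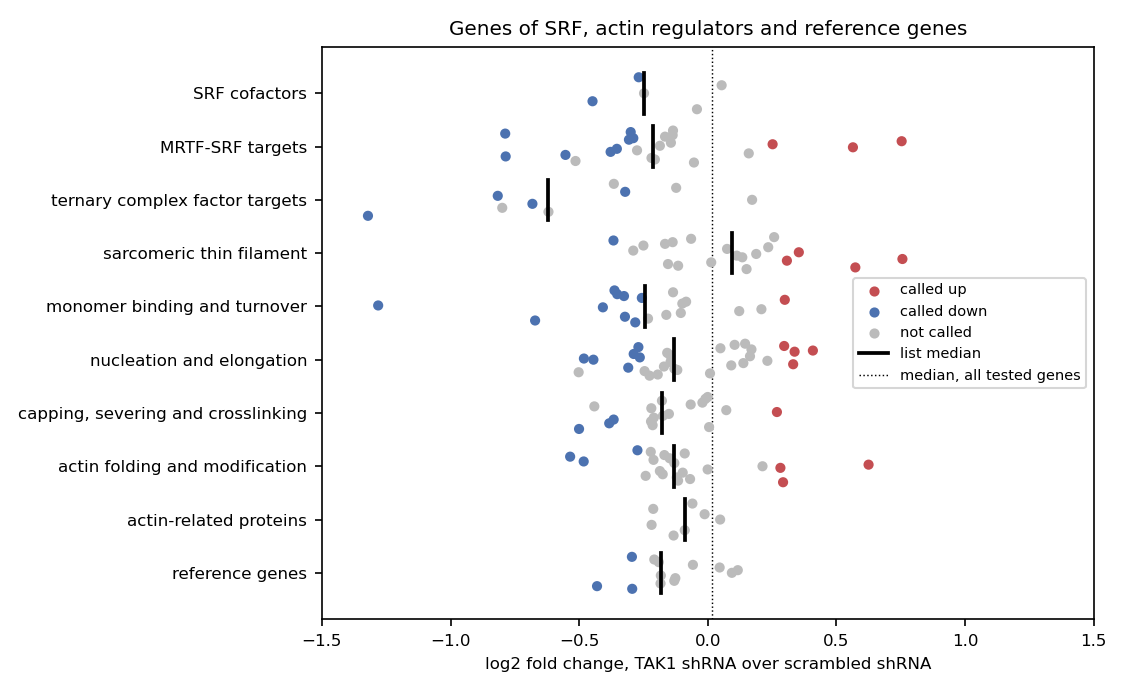
Log2 fold change (x axis, TAK1 shRNA over scrambled shRNA) of each tested gene in 10 lists around actin and SRF (rows), colored by call, with the list median as a black bar and the median of all tested genes as a dotted line. The median lies below the dotted line in every list but the sarcomeric thin filament, whose median was 0.094.

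Of 29 filament nucleators and elongators tested, 6 fell (20.7%, beside 11.3% of all tested genes), 4 rose (13.8%, beside 11.8%) and 19 were not called, with a median of -0.13. FHOD1 and DIAPH3, formins that build unbranched filaments, fell by 0.48 and 0.44 on the log2 scale. SPIRE1, a nucleator acting on vesicles, and JMY, a nucleator and p53 cofactor, rose by 0.41 and 0.34, as did DAAM1 and WASF3, named after their values were seen, by 0.33 and 0.30. Of the 9 Arp2/3 complex genes tested, 1 was called, ARPC5, named after its value was seen, which fell by 0.31 on the log2 scale, and the other 8 lay between -0.50 for ARPC1B and 0.0086 for ARPC1A. ACTR2, ACTR3 and ARPC2, at -0.23, -0.19 and -0.25, counted as down without knockdown replicate 3, where the list had 9 genes down. Of 18 capping, severing and crosslinking genes, 3 fell (16.7%, beside 11.3% of all tested genes), 1 rose (5.56%, beside 11.8%) and 14 were not called. Together 22.2% were called, beside 23.1% of all tested genes. Their median was -0.18. ACTN4, a non-muscle α-actinin, fell from 1328 ± 41.6 to 938 ± 19.1 CPM (SD, n = 3, log2 fold change -0.50, SE 0.040, adjusted p = 4.99e-10, edgeR), and CAPG and CAPZA2 fell by 0.38 and 0.37. FLNC, the muscle filamin, moved opposite to FLNA, from 2368 ± 112 to 2853 ± 154 CPM (0.27), a call that was lost without control replicate 3 (0.24) or knockdown replicate 1 (0.23).

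Actin depends on the chaperonin CCT, fed by prefoldin, to fold, and of the 21 genes for actin folding and modification 3 fell, 3 rose and 15 were not called (28.6% called, beside 23.1% of all tested genes), with a median of -0.13. The 8 CCT subunit genes ranged from -0.24 for CCT5 to -0.07 for CCT3, and 0 passed both thresholds by edgeR, DESeq2 or limma. At an unadjusted p under 0.05, 7 were lower. The share of all tested genes below that p was not counted, so nothing is read from the 7. CCT5 passed without control replicate 1 or knockdown replicate 3 (-0.26 and -0.28). The prefoldin genes PFDN5 and PFDN1 fell by 0.54 and 0.48 on the log2 scale, and VBP1, named after its value was seen, had a log2 fold change of -0.27, which was under the threshold without control replicate 3 (-0.20) or knockdown replicate 1 (-0.24). NAA80, the enzyme that acetylates the amino terminus of actin, rose from 3.93 ± 0.594 to 6.06 ± 0.669 CPM (SD, n = 3, log2 fold change 0.62, SE 0.15, adjusted p = 0.00239, edgeR). C19orf54, the peptidase that trims the amino terminus before it, rose by 0.29 and lost its call without knockdown replicate 1 (0.25). MICAL2, an oxidase that disassembles filaments, named after its value was seen, rose by 0.28. SETD3, the actin histidine methyltransferase, was at 68.9 ± 0.630 and 64.8 ± 0.340 CPM and was not called (-0.09). Of the 7 actin-related protein genes tested, 0 were called by edgeR, DESeq2 or limma, beside 23.1% of all tested genes by edgeR. Of these genes, 6 of 7 had values below 0. At an unadjusted p under 0.05, 3 were lower, again without a share over all genes. Their most abundant member, the dynactin subunit ACTR1A, lay at -0.22 and counted as down without knockdown replicate 1 (-0.25), and ACTR6 did so without knockdown replicate 3 (-0.28).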

How the data were processed

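Reads per gene from 3 control and 3 TAK1 knockdown RD samples were deposited by the authors as raw counts, without normalization. Per the paper's methods and the submitters' processing notes, poly(A)-enriched libraries were base-called with CASAVA, filtered for adaptors and low quality, and aligned to GRCh38 with STAR. The counter, the annotation release, strand use and the handling of reads with several matches are not given in the sources used here.

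The edgeR default filter on low counts kept 15935 of the 58735 rows, and these held 99.9% of all counts in each library. Total counts per library were 28839898 to 34469323. Counts were scaled by the trimmed mean of M-values and tested with the quasi-likelihood method of edgeR 4.0.16 in R 4.3.3, without a replicate term. Benjamini-Hochberg adjustment ran over all tested genes, and a call needed both adjusted p under 0.05 and 0.25 or more on the log2 scale. Each SE was obtained from the log2 fold change and its F statistic. The common biological coefficient of variation was 5.67%. Alternatives were DESeq2 1.42.0, limma 3.58.1 (voom), other scalings, filters and fold thresholds, a replicate block and each sample left out. The fitting code was tested on simulated data. All replicates differed by more than sampling noise (chi-square per degree of freedom 2.80 to 7.94). A count of 0 was taken to allow 3 counts, which covers counting error only.

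The members, lists and tests were chosen with earlier results of these data known. Genes were named as follows: the members, the SRF cofactors, MAP3K7, GAPDH and TBP, then from each list up to 4 called genes with the largest change that averaged 1 CPM or more and did not overlap between groups, the most abundant gene of lists with under 3 of these, and the 3 closest profiles. Other genes were named after their values were seen. Exon lengths came from GENCODE 44 and promoters from RefSeq. A further reference gene is not reported here.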

Additional observations from a re-analysis of the deposited data

How the results depend on the processing

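The log2 fold changes of ACTB, ACTG1, ACTA1 and ACTC1 kept their sign in every alternative fit, and those of ACTB, ACTG1 and ACTC1 moved by more than the spread between replicates only with scaling by library size alone, to -0.37, -0.41 and 0.44, where the summed actin ratio was -0.31. That scaling shifted the median of all genes from 0.018 to 0.066 and the upward share of calls from 51.0% to 62.9%. Under a fold threshold of 0.5 none of ACTB, ACTG1 and ACTC1 would pass. With 1 sample left out, ACTB ranged from -0.45 to -0.40, ACTG1 from -0.48 to -0.43, ACTA1 from -0.53 to -0.43, ACTC1 from 0.36 to 0.41, SRF from -0.10 to 0.024 and the sum from -0.38 to -0.33. ACTA2 and ACTG2 had too few counts for a fold.

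With lengths of the canonical transcript, the control and knockdown shares were 62.1% and 58.3% for ACTB, 28.5% and 26.1% for ACTG1, 9.41% and 15.6% for ACTC1 and 0.0215% and 0.0195% for ACTA1, where exon unions gave 0.0309% and 0.0279%.

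The counts of calls depended mostly on the fold threshold. At 0.5, 735 genes were up and 680 down, and with no fold threshold 2734 were down. At 0.5, the genes down numbered 0 among SRF cofactors, 3 among MRTF-SRF targets, 0 in the thin filament list, 2 among monomer-binding genes, 0 among nucleators, 1 among capping genes, 1 among folding genes and 0 among reference genes. Those up numbered 2 in the thin filament list, 0 among monomer-binding genes, 0 among nucleators, 0 among capping genes and 1 among folding genes. With no fold threshold, those down numbered 15 among MRTF-SRF targets, 3 in the thin filament list, 13 among nucleators, 9 among capping genes, 10 among folding genes, 1 among actin-related genes and 8 among reference genes, and those up 2 among monomer-binding genes and 1 among reference genes. Scaling by library size alone left 1 SRF cofactor, 3 nucleators and 1 reference gene down and 2 monomer-binding genes up. With 1 sample left out, the genes down ranged from 1675 to 1931 in all, 1 to 3 among SRF cofactors, 7 to 8 among MRTF-SRF targets, 1 to 2 in the thin filament list, 9 to 10 among monomer-binding genes, 5 to 9 among nucleators, 3 to 4 among capping genes, 2 to 4 among folding genes, 0 to 1 among actin-related genes and 3 to 4 among reference genes. Those up ranged from 1582 to 1810 in all, 3 to 5 in the thin filament list, 1 to 2 among monomer-binding genes and 0 to 1 among capping genes.

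Samples with the same replicate number did not deviate together (correlations of 0.037, 0.036 and 0.016 over 15935 genes), and not every sample correlated best with its own number. With a replicate block, 1942 genes were up and 1848 down, the log2 fold changes of ACTB and ACTC1 were -0.42 and 0.40, and no list count moved by over 1.5 times.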
